A study of Homo sapiens with 12 samples.

Results

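Integrins found on leukocytes, and ICAM1, a ligand of some of them, were followed at the messenger RNA level in THP-1 cells. This line was derived from a human monocytic leukaemia and turns macrophage-like under the phorbol ester PMA. The genes are ITGAL, ITGAM, ITGAX, ITGAV, ITGA4, ITGA5, ITGB1, ITGB2, ITGB3 and ICAM1, and every probe set carrying 1 of these symbols in the platform's gene table was taken. That gave 10 genes of 18132 and 41 probe sets of 44988 with a single symbol. Each gene was represented by its brightest probe set, and the others are given beside it. All 10 genes, and 37 of the 41 probe sets, reached the signal used as a filter (log2 4.48). The 12 PrimeView arrays form 4 groups of 3. In the first experiment, THP-1 cells treated with 100 ng/ml PMA for 48 hours were kept at the fever-like temperature of 40 °C or at 37 °C, for up to 24 hours, and the hour of harvest is not given for the arrays. In the other experiment, cells labelled siThermomir were compared with cells labelled control (WT in the titles). Per the labels' protocol, these cells too were treated with 100 ng/ml PMA for 48 hours, and differentiation took place at 40 °C. By the same protocol, a hairpin inhibitor of a microRNA was brought in by nucleofection together with a plasmid for GFP. GFP-positive cells were collected by sorting after 24 hours. ThermoMIR-1, miR-143 and miR-142 are named there as targets, beside a control inhibitor against no human microRNA. Which of them the arrays hold, and whether the control cells received the non-human one, is not given in the sources used here. All 4 groups are the same line, no label names separate cultures, and the p-values therefore measure the spread between arrays, which may be technical.

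Integrins are receptors of 2 chains, α and β, that bind matrix proteins or partners on other cells and change shape when signals from inside the cell reach their tails. The β2 chain, the product of ITGB2, is found on leukocytes and pairs with αL (LFA-1), αM (Mac-1, also complement receptor 3) or αX (complement receptor 4). LFA-1 and Mac-1 bind ICAM1, an immunoglobulin-like protein whose gene is driven by NF-kB and interferon signals in endothelium and in macrophages. The β1 chain pairs with α4 to bind VCAM1 and with α5 to bind fibronectin. The αV chain pairs with β3, among others, to bind vitronectin and other matrix proteins, and in macrophages αVβ3 takes part in the uptake of dying cells.

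The promoters of ICAM1, which rose most at 40 °C, and of ITGAM, which rose with it, are shown because both transcripts rose at 40 °C. RefSeq promoter windows were found for 6 of the 10 genes (8 windows), and the 250 bases before the transcription start of these 2 are given on GRCh38.p14, 5′ to 3′, on the plus strand. In the ICAM1 window, at chr19:10270870-10271119, capitals mark an NF-kB-type match (GGAAATTCC) from 186 to 178 bases before the start, a STAT-type match (TTCNNNGAA) from 75 to 67, and a TATA box (TATAAA) from 30 to 25. In the ITGAM window, at chr16:31259725-31259974, capitals mark a match to the purine-rich core of sites for the myeloid factor PU.1 (GAGGAA), from 127 to 122 bases before the start.

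ICAM1: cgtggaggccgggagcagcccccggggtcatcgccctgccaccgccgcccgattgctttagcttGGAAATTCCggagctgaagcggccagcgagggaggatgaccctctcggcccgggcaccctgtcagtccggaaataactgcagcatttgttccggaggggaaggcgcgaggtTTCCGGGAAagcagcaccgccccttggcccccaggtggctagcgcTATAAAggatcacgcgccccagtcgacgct

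ITGAM: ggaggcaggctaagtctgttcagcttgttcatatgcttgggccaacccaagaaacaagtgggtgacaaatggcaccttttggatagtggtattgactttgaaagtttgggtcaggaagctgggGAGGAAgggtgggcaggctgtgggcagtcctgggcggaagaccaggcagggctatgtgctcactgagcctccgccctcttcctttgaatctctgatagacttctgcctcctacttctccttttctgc

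Both strands were searched, and the marked matches do not overlap one another. The NF-kB letters occur in 0.413% of all 35116 promoter windows of that length, the STAT letters in 6.57%, the TATA letters in 10.7% and the PU.1 letters in 23.6%. Only this exact NF-kB spelling was searched, without free bases, so its low share follows in part from that choice. Other spellings of NF-kB sites were not searched in any gene. Among the windows of these genes the NF-kB and STAT letters were found in ICAM1, the TATA letters also in a window of ITGB1, and the PU.1 letters also in ITGAV and ITGB1. A pair of inverted heat shock element units (GAANNTTC), present in 5.78% of all windows, was found in none of the 8. The opposite order of these units was not searched. All matches given here are matches of letters and not measured binding sites.

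At 40 °C, transcripts of the ligand ICAM1 and of the αL and αM chains were higher, those of the αX and α4 chains lower, and those of the common chains β1 and β2 did not pass the test. Of the 10 genes, 5 rose and 2 fell (limma, Benjamini-Hochberg adjusted p under 0.05). Over all 13909 genes tested, 39.3% were called, 21.6% higher and 17.7% lower. The groups did not overlap for 8 of the 10, against 49.5% of all genes. None of the 10 reached 2-fold, which 1.01% of all genes did. The median log2 difference was 0.18 over the 10 genes and 0.01 over all genes.

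ITGAL encodes αL of LFA-1, the main ICAM1 receptor of leukocytes. Its log2 levels were 10.37, 10.27 and 10.29 at 40 °C, against 9.86, 9.94 and 9.97 at 37 °C. All 3 arrays at 40 °C lay above all 3 at 37 °C, a 1.31-fold increase (log2 difference 0.39, SE 0.05, limma adjusted p = 0.000669). ITGAM, the αM chain of Mac-1, a receptor for ICAM1, fibrinogen and complement iC3b, had log2 levels of 11.88, 11.73 and 11.81 at 40 °C, against 11.52, 11.45 and 11.49 at 37 °C. The groups were again apart, by 1.25-fold (0.32, SE 0.05, adjusted p = 0.00193), and each of the 3 ITGAM probe sets was called higher on its own (0.32 to 0.40).

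ITGAX, the αX chain, went the other way. Its log2 levels were 9.17, 9.16 and 9.10 at 40 °C, against 9.78, 9.81 and 9.70 at 37 °C. No 40 °C array reached the lowest one at 37 °C, and the transcript was 1.54-fold lower (−0.62, SE 0.05, adjusted p = 6.16e-05). ITGAM and ITGAX are neighbours on chromosome 16, with no coding gene between them in the RefSeq table. The ITGAX change lay 0.94 below that of ITGAM and 1.01 below that of ITGAL on the log2 scale. In an exact two-sided permutation test each of these differences had p = 0.1, the smallest that 3 arrays against 3 can give (0.15 adjusted over the 6 pairs of α chains and comparisons tested). The changes of ITGAL and ITGAM differed by 0.07 (exact p = 0.5). Of the 4 ITGAX probe sets 2 were called lower (−0.62 and −0.56), while the others differed by −0.27 and −0.11 and were not called.

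ITGB2, the partner of all 3 of these chains, had log2 levels of 13.16, 13.12 and 13.06 at 40 °C, against 13.14, 13.14 and 13.13 at 37 °C. The groups overlapped, and the difference was −0.02 (95% interval −0.13 to 0.08, adjusted p = 0.732). This single ITGB2 probe set is among the brightest on the array (99.2nd percentile of mean signal).

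ICAM1 showed the largest increase of the group. Its log2 levels were 8.41, 8.57 and 8.48 at 40 °C, against 7.69, 7.78 and 7.99 at 37 °C. The lowest array at 40 °C lay well above the highest at 37 °C, a 1.59-fold increase (0.67, SE 0.08, adjusted p = 0.000461) at the 98.1st percentile of all differences. In the fit over all probe sets, 2 of its 3 were called higher (0.67 and 0.17), and the dimmest differed by 0.16 and was not called.

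Among the chains of the β1 family, ITGA4 encodes α4, the VCAM1 receptor of monocytes and lymphocytes. Its log2 levels were 8.77, 8.77 and 8.82 at 40 °C, against 9.41, 9.47 and 9.43 at 37 °C. The groups were widely apart, and the transcript was 1.57-fold lower (−0.65, SE 0.04, adjusted p = 3.04e-05). The other ITGA4 probe sets did not all follow: 1 was called lower by less (−0.26), while 2 differed by 0.08 each and were not called. ITGA5, the fibronectin receptor chain, stood at 8.26, 8.31 and 8.33 at 40 °C, against 8.15, 8.04 and 8.06 at 37 °C. It was 1.16-fold higher with no overlap (0.22, SE 0.05, adjusted p = 0.00911), but the mean of its 4 probe sets did not pass (0.16, adjusted p = 0.0622), nor did the brightest one when the signal of the poly-A spikes entered the fit as a covariate (0.28, SE 0.08, adjusted p = 0.0584). ITGB1 had levels of 13.09, 13.05 and 13.11 at 40 °C, against 13.07, 13.05 and 13.05 at 37 °C, which overlap (0.03, 95% interval −0.07 to 0.12, adjusted p = 0.671). This ITGB1 probe set lies at the 99.4th percentile of signal. A dimmer one was called higher by 0.46 (10.38 ± 0.03 at 40 °C and 9.92 ± 0.05 at 37 °C, SD, n = 3 each), and the mean of the gene's 5 probe sets was called higher too (0.13, adjusted p = 0.0422).

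ITGAV, the αV chain, had log2 levels of 9.55, 9.34 and 9.49 at 40 °C, against 9.32, 9.32 and 9.30 at 37 °C. The groups did not overlap, but the difference of 0.15 (SE 0.06) did not pass (adjusted p = 0.0913). It passed without replicate 2 at 40 °C (0.21, adjusted p = 0.0196), with the mean of the 5 ITGAV probe sets (0.22, adjusted p = 0.0128) and with trend and robust eBayes (adjusted p = 0.0201). ITGB3, the β3 chain, was the dimmest of the group, at 5.23, 5.29 and 5.48 at 40 °C, against 5.01, 5.17 and 5.14 at 37 °C. Its call as higher (1.17-fold, adjusted p = 0.0454) lay just under the threshold and was lost on leaving out any single array other than replicate 1 at 40 °C (adjusted p = 0.0508 to 0.145). It was also lost in the fit over all probe sets, where 1 other ITGB3 probe set was called higher (0.37). The mean of the gene's 7 probe sets was called higher (0.14, adjusted p = 0.0237).

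**Figure D1:**
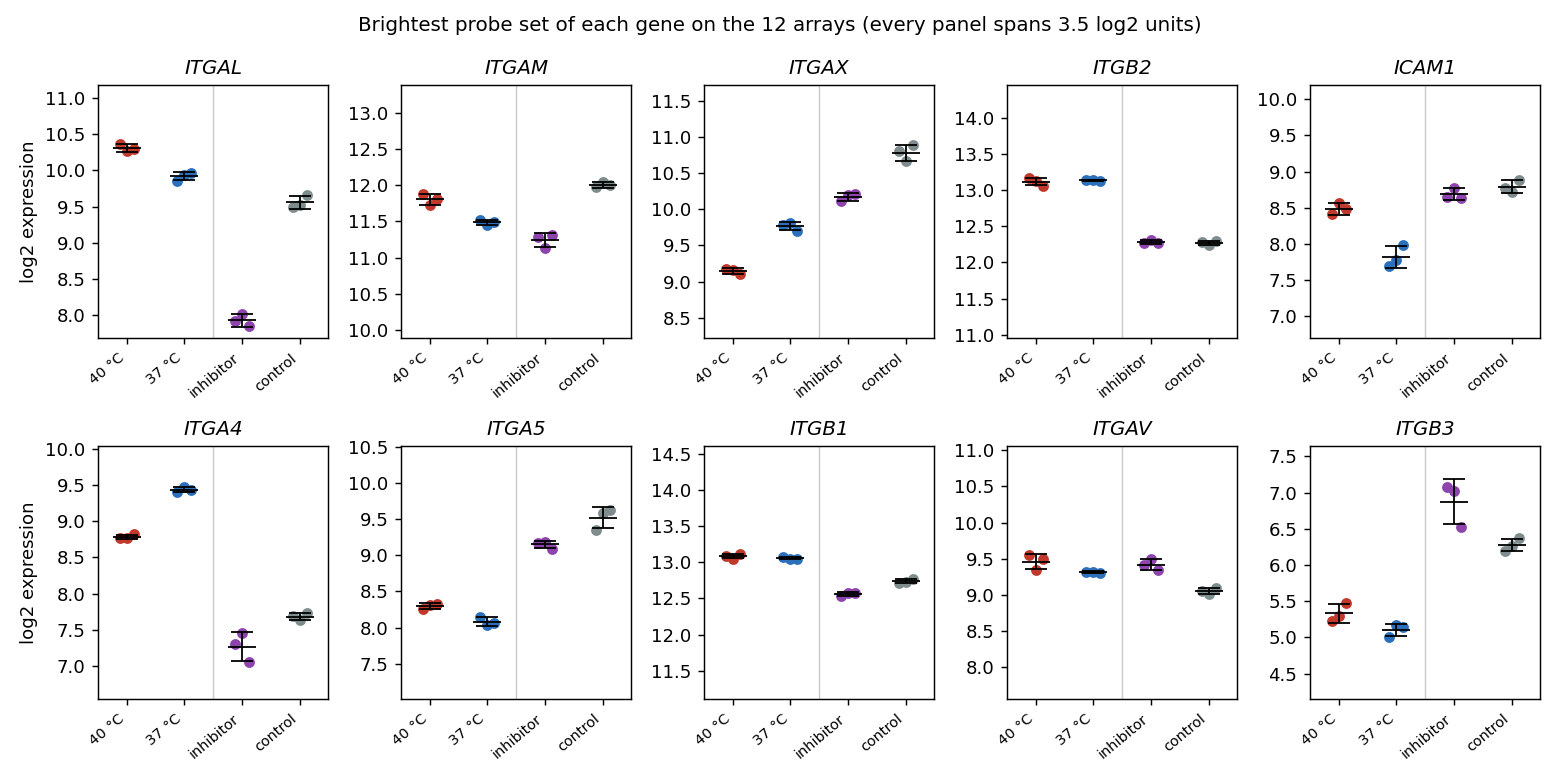
Log2 expression of the brightest probe set of each gene on the 12 arrays, with points for single arrays and bars for the mean ± SD of 3 (40 °C, 37 °C, thermomiR inhibitor, control, from left to right). Every panel spans the same number of log2 units, so that heights can be compared. ITGAL, ITGAM and ICAM1 lie higher at 40 °C, ITGAX and ITGA4 lower, and the ITGAL arrays of the inhibitor group lie 1.63 below their controls.

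In the inhibitor experiment the transcripts of αL, αM, αX, α4, α5 and β1 were lower. Of the 10 genes, 6 were lower and 2 higher by their brightest probe set, and ITGB2 and ICAM1 did not pass. The 2 higher ones, ITGAV and ITGB3, were not called by the mean of their probe sets (−0.17 for ITGAV and 0.17 for ITGB3), under which the same 6 genes were lower and 0 higher. Over all genes 45.2% were called, 25.7% higher and 19.6% lower, and the groups did not overlap for 8 of the 10 genes, against 54.1% of all. Only ITGAL was at least 2-fold lower, as were 2.7% of all genes. The median log2 difference was −0.28 over the 10 genes and 0.09 over all genes. The groups also differ in the poly-A spikes added to the RNA (log2 5.83 ± 0.27 with the inhibitor and 7.07 ± 0.35 in controls, SD, n = 3 each) and in 18S rRNA signal (9.77 ± 0.33 with the inhibitor and 12.75 ± 0.05 in controls). The 28S rRNA signal differed in the other direction (10.58 ± 0.10 with the inhibitor and 10.24 ± 0.05 in controls). With the spike level as a covariate 1 of the 10 genes, ITGAL, was still called (−1.55, SE 0.21), of 236 genes in all. The differences of ITGAM (−0.79, SE 0.20), ITGAX (−0.87, SE 0.18), ITGAV (0.41, SE 0.19), ITGB1 (−0.22, SE 0.16) and ITGB3 (1.12, SE 0.35) were at least as large as without it, with larger SEs, and were not called. Those of ITGA4 (−0.18, SE 0.28) and ITGA5 (−0.10, SE 0.22) were smaller. The part of these measures in the differences was not tested.

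ITGAL had the largest change. Its log2 levels were 7.92, 8.02 and 7.85 with the inhibitor, against 9.50, 9.52 and 9.66 in controls. The highest inhibitor array lay far below the lowest control, and the transcript was 3.10-fold lower (−1.63, SE 0.07, limma adjusted p = 1.13e-05), at the 0.7th percentile of all differences. The next brightest ITGAL probe set fell by 2.19 on the log2 scale and a faint one by 0.78, while another faint one differed by −0.06 and was not called. ITGAM stood at 11.29, 11.13 and 11.31 with the inhibitor, against values between 11.97 and 12.04 on the 3 control arrays. It was 1.69-fold lower with the groups apart (−0.76, SE 0.07, adjusted p = 0.00015), and all 3 of its probe sets were called lower (−1.12 to −0.76).

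ITGAX levels were 10.11, 10.20 and 10.21 with the inhibitor, against 10.80, 10.66 and 10.88 in controls. The groups were apart by 1.52-fold (−0.61, SE 0.07, adjusted p = 0.000551). Of its 4 probe sets 2 were called lower, the other of these by 1.43, while 2 differed by −0.27 and −0.22 and were not called. The ITGAL change lay 0.87 below that of ITGAM and the ITGAX change 1.02 above that of ITGAL (exact permutation p = 0.1 each, the smallest possible, and 0.15 adjusted), whereas ITGAX and ITGAM differed in their change by 0.15 (exact p = 0.3). ITGB2 had levels of 12.27, 12.31 and 12.27 with the inhibitor, against 12.28, 12.24 and 12.29 in controls. The groups overlap, with a difference of 0.01 (95% interval −0.11 to 0.14, adjusted p = 0.853).

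ICAM1 levels were 8.65, 8.78 and 8.63 with the inhibitor, against 8.77, 8.72 and 8.89 in controls. These overlap, and the difference of −0.11 (95% interval −0.28 to 0.06) did not pass (adjusted p = 0.264). With array weights it did (−0.18, adjusted p = 0.019). None of the 3 ICAM1 probe sets was called.

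ITGA4 levels were 7.30, 7.45 and 7.05 with the inhibitor, against 7.69, 7.63 and 7.73 in controls. It was 1.33-fold lower with no overlap (−0.42, SE 0.10, adjusted p = 0.0132), a call that was just lost without replicate 3 of the controls (adjusted p = 0.0501). The 3 dimmer tested ITGA4 probe sets were lower by more, at −0.93, −1.25 and −1.41, and all were called. ITGA5 levels were 9.17, 9.19 and 9.09 with the inhibitor, against 9.35, 9.59 and 9.62 in controls, a 1.29-fold decrease (−0.37, SE 0.08, adjusted p = 0.00945). Its 4 probe sets were all called lower (−0.98 to −0.37). ITGB1 levels were 12.53, 12.57 and 12.58 with the inhibitor, against 12.72, 12.73 and 12.77 in controls. The groups were apart but close (1.13-fold lower, −0.18, SE 0.05, adjusted p = 0.0291). Leaving out replicate 1 or 3 of the inhibitor arrays, or any 1 control array, ended this ITGB1 call (adjusted p = 0.0532 to 0.11), while the 3 dimmer tested probe sets were called lower by −0.69 to −0.65. In ITGAM, ITGA4, ITGA5 and ITGB1 the brightest probe set therefore showed the smallest decrease. Along the ACTB transcript, the 3 prime probe set exceeded the 5 prime one by 2.70 ± 0.16 with the inhibitor and 2.44 ± 0.09 in controls, and by 1.58 ± 0.22 at 40 °C and 1.55 ± 0.04 at 37 °C (log2, SD, n = 3 each). Along GAPDH the order in the inhibitor experiment was the opposite, at 0.72 ± 0.09 with the inhibitor and 1.04 ± 0.04 in controls, and the excess was 0.44 ± 0.10 at 40 °C and 0.38 ± 0.02 at 37 °C. Whether either measure of RNA integrity has a part in the spread between probe sets was not tested.

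ITGAV levels were 9.41, 9.50 and 9.35 with the inhibitor, against 9.05, 9.01 and 9.09 in controls. The groups were apart, and the brightest probe set was 1.29-fold higher (0.37, SE 0.06, adjusted p = 0.00252). The probe sets of ITGAV disagreed, however: 2 dimmer ones were called lower (−0.58 and −0.55), 2 were not called (−0.26 and 0.18), and the mean of all 5 differed by −0.17 (adjusted p = 0.0797). No direction can be given for the gene as a whole. ITGB3 levels were 7.08, 7.02 and 6.52 with the inhibitor, against 6.20, 6.26 and 6.37 in controls. Replicate 3 of the inhibitor arrays was nearest to the controls but still above them, and the transcript was 1.51-fold higher (0.60, SE 0.15, adjusted p = 0.0126). Another ITGB3 probe set was also called higher (0.42), while the mean of its 7 did not pass (0.17, adjusted p = 0.0669).

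**Figure D2:**
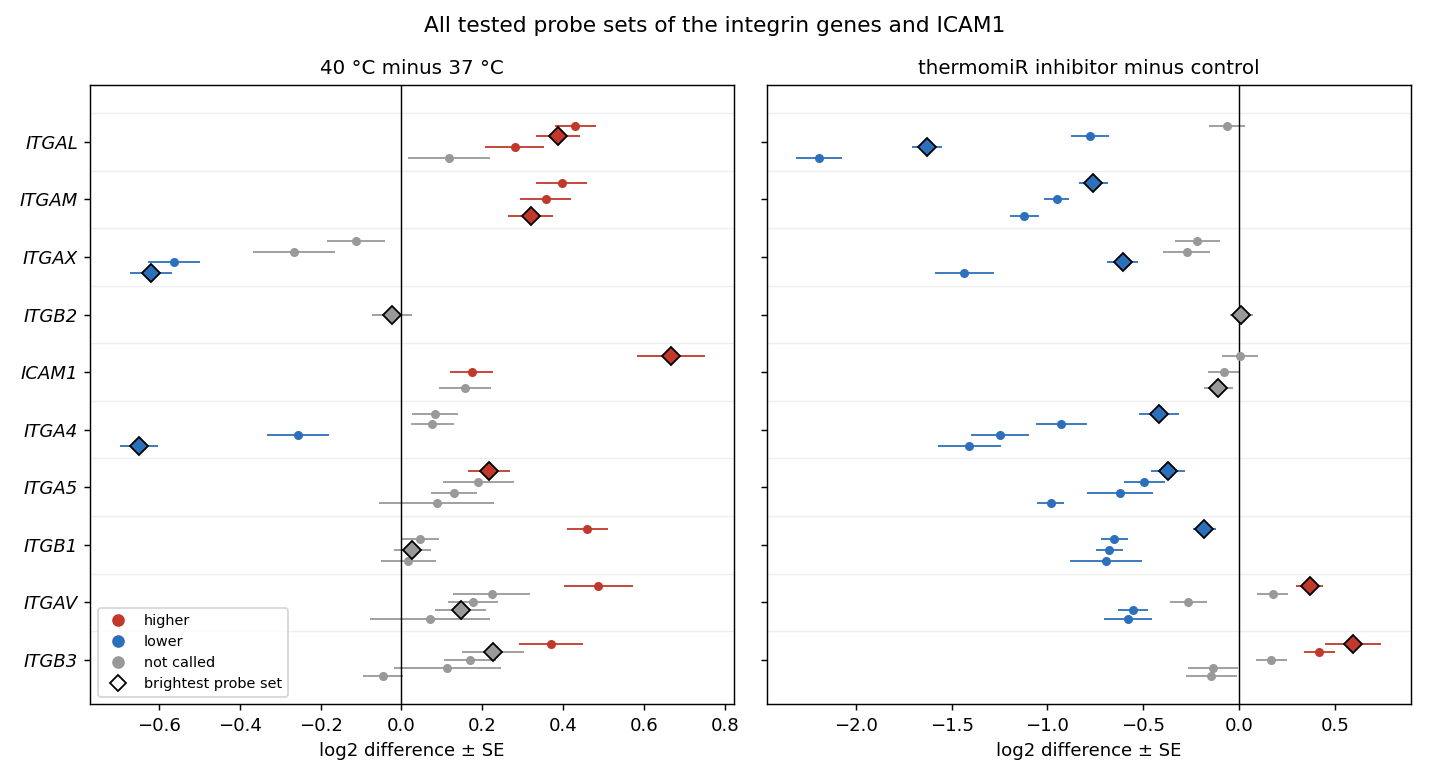
Log2 difference ± SE of each of the 37 tested probe sets, by gene, for 40 °C minus 37 °C (left) and thermomiR inhibitor minus control (right), from the fit over all probe sets. Diamonds mark the brightest probe set of a gene. ITGAM, ITGAL, ITGAX, ITGA5 and ITGB1 probe sets keep 1 side in each experiment, whereas ITGAV probe sets fall on both sides in the inhibitor experiment.

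Probe set by probe set, 12 of the 37 tested were called higher and 4 lower at 40 °C, against 19.9% and 17.6% of the 31682 probe sets tested (37.5% in all). With the inhibitor 3 were higher and 22 lower, against 21.3% and 22% of all (43.3% in all). Probe sets of a gene read the same RNA and are not independent. The ITGAV calls depended on the probe set in both experiments, and the ITGB1 call did so at 40 °C. With the inhibitor all 4 tested ITGB1 probe sets were called lower. No ITGA5 probe set other than the brightest was called at 40 °C. Of the tested probe sets, 3 of 4 for ITGAL and 2 of 4 for ITGAX were called in each experiment. At 40 °C 2 of 4 were called for ITGA4 and 1 of 5 for ITGB3. With the inhibitor 2 of 5 ITGB3 probe sets were called higher, while others differed by −0.13 and −0.14 and were not called.

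Set side by side, the 2 experiments gave the same sign of difference for some of these genes and opposite signs for others. ITGAL differed by 0.39 at 40 °C and by −1.63 with the inhibitor, ITGAM by 0.32 and −0.76, and ITGA5 by 0.22 and −0.37, each called in both experiments. ITGAX (−0.62 and −0.61) and ITGA4 (−0.65 and −0.42) were called lower in both. These are calls of the brightest probe sets. The ITGA5 call at 40 °C was lost with the mean of its probe sets, and 2 ITGA4 probe sets were not called there. With the spike covariate only ITGAL kept its inhibitor call. ICAM1 was called only at 40 °C (0.67 and −0.11). The experiments share no arrays, and the difference between their effects was not tested.

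**Figure D3:**
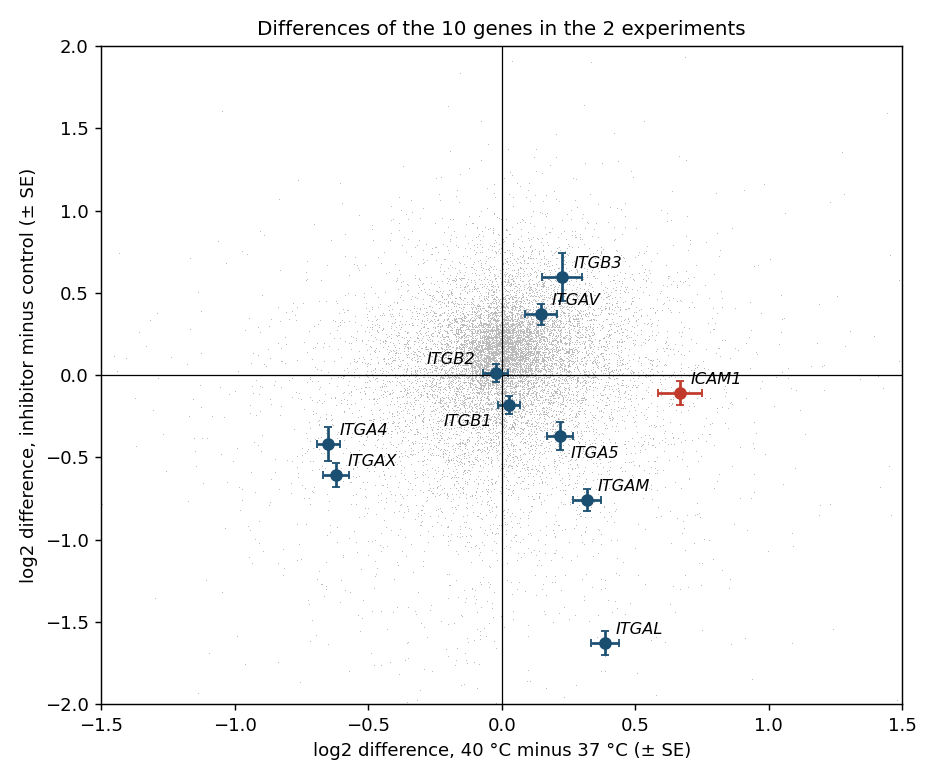
Log2 difference at 40 °C minus 37 °C (horizontal) against inhibitor minus control (vertical) for the 10 genes, with SEs, over the cloud of all tested genes within the axes (13824, with 85 outside). ITGAL, ITGAM and ITGA5 lie at the lower right, ITGAX and ITGA4 at the lower left, and ICAM1 far to the right near the horizontal line.

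The order of levels over the 4 groups also differed between genes. ITGAM was highest in the control cells (11.97 to 12.04), followed by 40 °C (11.81), 37 °C (11.49) and the inhibitor (11.24), with no overlap between neighbours. ITGAL ran from 40 °C (10.31) over 37 °C (9.92) and control (9.56) to the inhibitor (7.93), also without overlap. ITGAX was highest in control (10.78) and lowest at 40 °C (9.14), and ITGA4 highest at 37 °C (9.44) and lowest with the inhibitor (7.27), again with no overlap between neighbours.

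The remaining genes had neighbouring groups that overlapped, apart from ITGA5 and ITGB3, which were higher in both nucleofected and sorted groups (ITGA5 9.15 to 9.52, ITGB3 6.28 to 6.87) than at 40 °C or 37 °C (8.08 to 8.30 and 5.11 to 5.33). ITGB2 fell into 2 levels, with 12.28 for the inhibitor and 12.27 for control overlapping, and 13.11 at 40 °C and 13.14 at 37 °C overlapping. For ICAM1 the inhibitor and control overlapped above the other groups, for ITGB1 40 °C and 37 °C overlapped at the top, and for ITGAV 40 °C and the inhibitor did. Handling and experiment cannot be told apart between the experiments, so these orders are descriptions.

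The transcripts whose profile over the 12 arrays lay closest to these genes were taken by the root mean square distance between log2 profiles, each centred on its own mean. For ITGB2, whose own profile deviates by 0.43 from its mean, they were PYCARD, an inflammasome adaptor (distance 0.05), DCP2 and PITHD1 (0.05 each). For ITGAX (deviation 0.60) they were TAF1D (0.12), the basement membrane protein gene NID1 (0.13) and PAQR6 (0.14). For ICAM1 (deviation 0.39) they were AZIN1 (0.09), TMEM263 and AP2B1 (0.11 each). The closest of 13909 genes are named, and the 4 groups set most of each profile.

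Other integrin chains moved in both directions. Of 17 on the list 12 were tested, with 2 higher and 4 lower at 40 °C. ITGA6, a laminin receptor chain, was 1.77-fold and ITGA7, another, 1.80-fold lower, while ITGB5, a β partner of αV, was 1.54-fold and ITGA3 1.27-fold higher. With the inhibitor 3 were higher and 5 lower. ITGA3 was 2.15-fold, ITGA6 2.09-fold and ITGB7, the β chain that can replace β1 beside α4, 1.38-fold lower, and ITGB5 was 1.45-fold higher. The median differences of the list were 0.07 and 0.08.

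Genes that activate integrins or bind their tails were lower more often than higher, with 2 higher and 10 lower of 30 tested at 40 °C and 7 higher and 14 lower with the inhibitor (medians −0.02 and −0.20, against 0.01 and 0.09 over all genes). At 40 °C the Src family kinase gene FGR was 1.80-fold higher, and the kindlin gene FERMT2 was 1.50-fold, the adaptor gene FYB1 1.36-fold and vinculin (VCL) 1.21-fold lower. With the inhibitor PTK2, focal adhesion kinase, was 2.58-fold, PARVA, which binds integrin-linked kinase, 1.81-fold and the kinase gene LYN 1.77-fold lower, whereas PARVG, the parvin of blood cells, was 1.77-fold higher.

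The other ICAM genes did not all follow ICAM1. Of 7 counter-receptor genes tested of 11, 2 rose and 1 fell at 40 °C: ICAM4 was 1.37-fold and ICAM2, a further LFA-1 ligand, 1.30-fold higher, and ICAM3 1.15-fold lower. With the inhibitor 2 rose and 2 fell, ICAM2 being 1.68-fold and THY1 1.30-fold higher, and ICAM3 1.44-fold and ICAM4 1.22-fold lower. The medians were 0.02 and 0.07. Few matrix and soluble ligands were called at 40 °C (1 higher and 1 lower of 14 tested of 18, median −0.03), with TGM2 1.12-fold higher and CCN1 1.16-fold lower. With the inhibitor, fibronectin (FN1), the ligand of α5β1, was 1.49-fold higher, and SPP1, the αVβ3 ligand osteopontin, 1.69-fold and TGM2 1.50-fold lower, the 3 called members of that list (median −0.03).

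Among selectins and other adhesion molecules 3 rose and 5 fell of 12 tested at 40 °C (median −0.08). PLAU, the urokinase protease, was 1.93-fold higher, and PECAM1 was 1.37-fold, CD44 1.29-fold and ADAM17, a sheddase, 1.28-fold lower. With the inhibitor 5 rose and 2 fell (median 0.16): SELPLG, the P-selectin ligand, was 1.78-fold, CD44 1.48-fold and CD9 1.41-fold higher, and PLAU 1.64-fold lower. Of 12 tested factors known at these promoters, 4 rose and 2 fell at 40 °C (median 0.05), with CEBPB 1.94-fold, JUN 1.56-fold, CEBPA 1.28-fold and IRF1 1.26-fold higher. With the inhibitor 5 rose and 1 fell (median 0.18), with ETS1 1.50-fold, JUN 1.48-fold and RELA, an NF-kB subunit, 1.38-fold higher and CEBPA 1.31-fold lower.

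**Figure D4:**
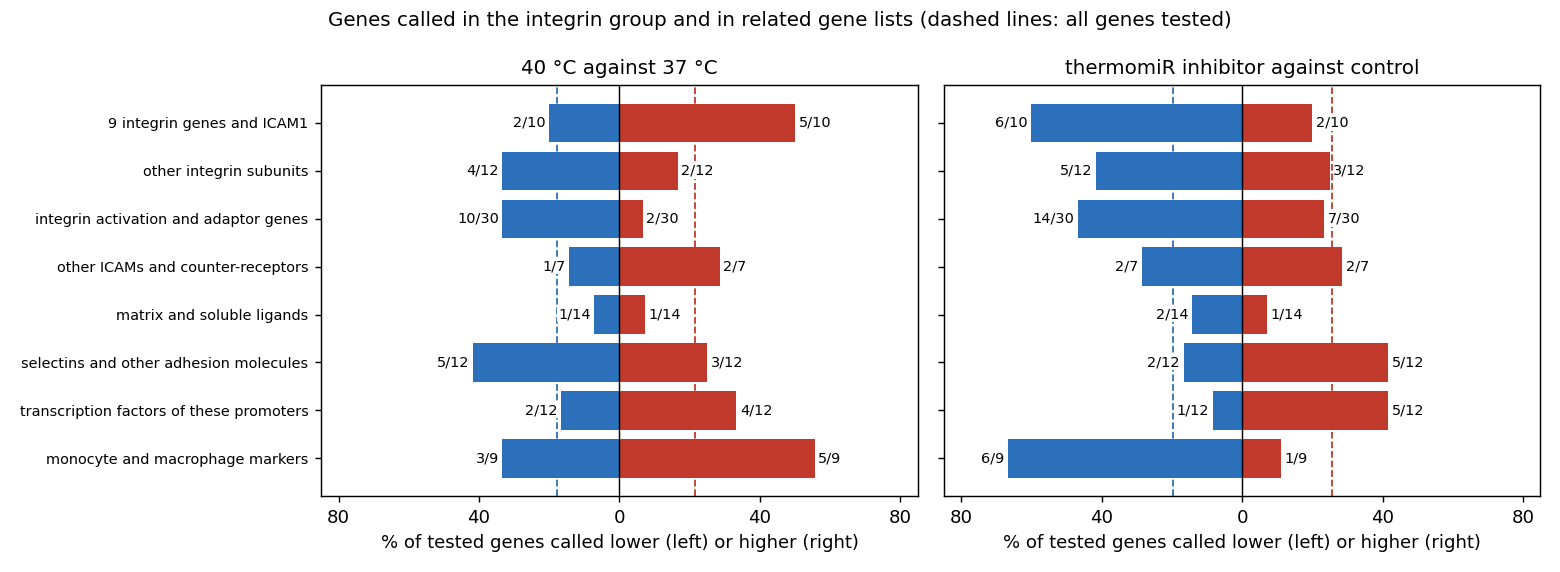
Share of tested genes called lower (left of 0) and higher (right of 0) in the 10-gene group and in related lists, for 40 °C against 37 °C and thermomiR inhibitor against control, with counts at the bars and dashed lines for all genes. Integrin activation genes show 10 of 30 lower at 40 °C and 14 of 30 lower with the inhibitor.

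The monocyte and macrophage markers were present and also moved. Of 10 markers 9 have a probe set with a single symbol, all above the filter, and their mean log2 level ran from 8.89 to 9.09 over the inhibitor arrays, against 9.57 to 9.62 in controls, and from 9.88 to 9.98 at 40 °C, against 9.81 to 9.83 at 37 °C. With the inhibitor 6 fell and 1 rose (median −0.42), with LYZ, lysozyme, 5.07-fold, PTPRC, the leukocyte surface phosphatase CD45, 2.21-fold, CD14 1.73-fold and CD68 1.40-fold lower. At 40 °C 5 rose and 3 fell (median 0.22), with CD163 1.95-fold and TYROBP 1.22-fold higher, and PTPRC 1.58-fold and LYZ 1.22-fold lower. The 6 that fell with the inhibitor moved in the direction of ITGAL and ITGAM, while the 1 that rose, CSF1R (1.21-fold), did not. At 40 °C the 5 that rose moved with ITGAL and ITGAM and the 3 that fell against them. The part of these markers in the integrin differences was not tested. In bulk RNA fewer cells of a kind and less RNA per cell cannot be told apart.

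Markers of other cells had lower mean levels. Above the filter were 2 of 4 erythroid, 4 of 6 lymphocyte, 3 of 8 fibroblast and epithelial, and 5 of 8 endothelial and platelet genes with a probe set. The erythroid mean level was 4.69 to 4.94 with the inhibitor and 4.41 to 4.74 in controls, and 4.56 to 4.62 at 40 °C and 4.47 to 4.62 at 37 °C. No marker of these 4 lists was called at 40 °C. With the inhibitor NKG7 was 1.97-fold, GP9 1.24-fold and KRT8 1.21-fold higher and VWF 1.25-fold lower. The lymphocyte mean level was 5.16 to 5.48 with the inhibitor and 5.02 to 5.19 in controls, and 4.85 to 4.97 at 40 °C and 4.88 to 4.94 at 37 °C. For fibroblast and epithelial genes it was 3.96 to 4.03 with the inhibitor and 3.83 to 3.96 in controls, and 3.82 to 3.88 at 40 °C and 3.70 to 3.81 at 37 °C. Endothelial and platelet genes averaged 5.52 to 5.62 with the inhibitor and 5.40 to 5.49 in controls, and 5.03 to 5.16 at 40 °C and 5.02 to 5.12 at 37 °C. VWF was the bright one among them (9.09 with the inhibitor and 9.40 in controls). The part of these markers in the integrin differences was not tested.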

How the data were processed

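The values deposited by the authors are on a log2 scale, as read from the values, for 49395 probe sets of 12 Affymetrix PrimeView arrays, per the labels' protocols. How the authors corrected background, normalized and summarised the probes, with which software and on which build, is not stated in those labels or the file. Array medians lay between 5.72 and 5.87, arrays of 1 group correlated at r = 0.9939 to 0.9984, and no 2 arrays were identical. The number of arrays limits the precision.

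A gene was represented by its probe set with the highest mean among those with exactly 1 symbol, and 13909 of 18132 genes whose mean reached the 30th percentile of non-control probe sets were tested. Each experiment was fitted alone across all genes, and again across all 31682 probe sets, with limma 3.58.1 in R 4.3.3 (lmFit, eBayes, two-sided, Benjamini-Hochberg, threshold 0.05). Residual degrees of freedom were 4. A called gene is one with adjusted p under 0.05, folds are ratios computed from log2 differences, and an exact permutation test compared changes of α chains. The fit was tested on simulated data, with 50 genes changed by each size. For temperature 44% of differences of 0.25 log2 units and 88% of those of 0.5 were recovered. For the inhibitor 4% and 58% were. False calls numbered 5 in each simulation. The simulations held far fewer changed genes than the data, with 170 and 128 calls in all, against 5472 and 6290 in the data. The adjusted threshold was therefore stricter in the simulations, and these shares do not give the recovery in the data.

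The 10 genes, the lists and the alternatives were chosen with earlier results of these data known. Named from a list are up to 4 called genes a comparison by smallest p, and CSF1R as the macrophage marker that rose with the inhibitor. Promoters are RefSeq's, and all 10 genes matched RefSeq by gene identifier. Figures were drawn with matplotlib 3.10.9 under Python 3.11.15.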

Additional observations from a re-analysis of the deposited data

How the results depend on the processing

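Counts of called genes over the whole table, among the 10 genes and among their probe sets stayed within 1.5 times under a joint fit, the replicate block, other filters, the mean of probe sets, quantile normalization, median centring, trend and robust eBayes and array weights. The exception was the poly-A spike covariate, which takes 1 degree of freedom. It tracks the groups in the inhibitor experiment and nearly does so for temperature (log2 7.73 to 7.80 at 40 °C and 7.66 to 7.73 at 37 °C). With it 2673 genes and 10 integrin and ICAM1 probe sets were called for temperature, and 236 genes, 1 of the 10 genes and 1 probe set for the inhibitor. Leaving out 1 array each gave 4561 to 4921 genes, 6 to 7 of the 10 and 14 to 16 probe sets for temperature, and 5012 to 6960, 6 to 8 and 21 to 25 for the inhibitor. The mean of the ITGAV probe sets reversed its inhibitor difference (−0.17). ITGAL, ITGAM, ITGAX, ITGA4 and ICAM1 kept their temperature calls, and ITGAL its inhibitor call, in all 16 alternatives each. The ITGB1 inhibitor call was also lost without a filter (adjusted p = 0.0513) and with median centring (0.0807), and the ITGB3 temperature call with a joint fit (0.204), no filter (0.0645), quantile normalization (0.0523), trend and robust eBayes (0.0572) and the spike covariate (0.30, adjusted p = 0.163). The cause was not tested.

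Replicate numbers showed no steady pairing of the arrays: deviations from group means of same-numbered arrays correlated at −0.13, −0.10 and 0.23 for temperature and −0.19, −0.60 and −0.15 for the inhibitor. Differently numbered arrays reached 0.33 for temperature and 0.46 for the inhibitor. Deviations from a group mean are tied to one another, so these values cannot settle whether arrays were paired. With the replicate block 4955 genes and 7 of the 10 were called for temperature, and 4780 and 7 for the inhibitor, where the ITGB1 call was lost (−0.18, adjusted p = 0.128).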
